A study of Mus musculus with 12 samples.

Results

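Bulk RNA-seq libraries of mouse spleen cells that had been positively selected through Ly6G were compared with libraries of spleen cells selected through CCR2. Both were taken after cryo-thermal therapy (CTT), a local treatment that freezes and then heats a tumor. The comparison used 6 of the 12 libraries of the series: 3 labelled neutrophils and 3 labelled monocytes. All mice were wild type, and the labels give no strain, age, sex or tumor. The Ly6G-selected cells came from spleens 12 h after CTT and the CCR2-selected cells from spleens 5 days after CTT. In each case the cells were bound with a PE-coupled antibody to the antigen and drawn out with a bead kit for PE-labelled cells. The other 6 libraries were used only beside these: 3 of Ly6G-selected cells from tumor-bearing mice without CTT, and 3 of CCR2-selected cells 5 days after CTT with anti-Ly6G treatment. Selection antibody, time after therapy and count table change together between the groups, so their shares in any difference cannot be told apart. The libraries are labelled biological replicates with no number of mice stated, so p-values reflect only library-to-library spread, which may be technical.

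Ly6G is a surface protein of mouse neutrophils, short-lived granulocytes that carry microbicidal proteins in several kinds of granules. CCR2 is the chemokine receptor by which classical monocytes leave the bone marrow, and monocytes and macrophages carry the growth factor receptor encoded by Csf1r. The spleen also holds B and T cells, natural killer cells, dendritic cells and resident macrophages. Among the resident cells, red pulp macrophages take up aged red blood cells, break down heme and return iron to the blood.

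The 6 libraries held between 31865982 and 34167086 counts. Of 16283 genes present in both count tables, 13209 had enough counts for a test. The test was edgeR's quasi-likelihood F test, and genes with a Benjamini-Hochberg adjusted p under 0.05 are said to pass. Levels are CPM, counts relative to library size, scaled by TMM over the 6 libraries and given in the order of replicates 1, 2 and 3. Fold changes are log2 values, Ly6G-selected minus CCR2-selected, so a negative value means a higher level in the CCR2-selected cells. Of the tested genes, 2822 (21.4%) passed as higher in the Ly6G-selected and 2888 (21.9%) as higher in the CCR2-selected cells. Counts of list members given below are to be read beside these shares. Over all tested genes the median difference was −0.02. Ranges of the 3 and 3 libraries did not overlap for 27.4% of genes on the Ly6G-selected and 29.0% on the CCR2-selected side. With library totals alone as the scale the median moved to −0.18 and the share of calls on the Ly6G-selected side fell from 49.4% to 29.0%, and fits on the deposited FPKM gave 28.1% to 28.9%. Log2 correlations between libraries of the same selection were at least 0.978, and those between selections at most 0.961.

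Transcripts of the antigens used for selection did not separate the selections. Ly6g measured 13.1, 20.0 and 26.4 CPM in the Ly6G-selected libraries and 15.5, 11.1 and 12.6 CPM in the CCR2-selected ones. Replicate 1 of the Ly6G-selected cells lay inside the range of the CCR2-selected cells, and the log2 fold change of 0.60 (SE 0.24) did not pass (edgeR adjusted p = 0.0710). Without that replicate it was 0.84, with an edgeR adjusted p of 0.00736, and DESeq2 also called it. Ccr2 measured 126, 201 and 197 CPM in the Ly6G-selected and 254, 181 and 186 CPM in the CCR2-selected libraries. Its ranges overlapped as well, with a log2 fold change of −0.25 (SE 0.19, 95% interval −0.62 to 0.13, edgeR adjusted p = 0.326). Reads of either gene may be shared with close relatives, so both values are uncertain. Ly6g lies at chr15:75155261-75159128 and Ccr2 at chr9:124101918-124109140 in RefSeq GRCm38.p6, the assembly that mm10 names.

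Of the other markers, the myeloid growth factor receptor gene separated the selections with higher levels in the CCR2-selected cells, and Cd74 with higher levels in the Ly6G-selected cells. Csf1r, the CSF-1 receptor of monocytes and macrophages, measured 561, 874 and 854 CPM in the Ly6G-selected and 2921, 1853 and 1987 CPM in the CCR2-selected libraries. No Ly6G-selected library reached the lowest CCR2-selected one, and the difference was −1.56 on the log2 scale (SE 0.21; edgeR adjusted p = 0.000691). Cd74, the invariant chain that escorts MHC class II molecules and is abundant in B cells, measured 11923, 13468 and 14727 CPM in the Ly6G-selected and 6365, 6842 and 7097 CPM in the CCR2-selected libraries. It was higher in every Ly6G-selected library, by 0.98 on the log2 scale (SE 0.10, edgeR adjusted p = 0.000197). S100a8, a subunit of calprotectin, the calcium-binding complex of neutrophils and monocytes, measured 1076, 1442 and 1737 CPM against 1103, 794 and 855 CPM. It passed at a log2 difference of 0.63 (SE 0.18, edgeR adjusted p = 0.0215), although replicate 1 of the Ly6G-selected cells lay below replicate 1 of the CCR2-selected cells. Leaving out Ly6G-selected replicate 2 or 3 or CCR2-selected replicate 2 or 3 ended that call, with edgeR adjusted p between 0.0603 and 0.0792.

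**Figure D1:**
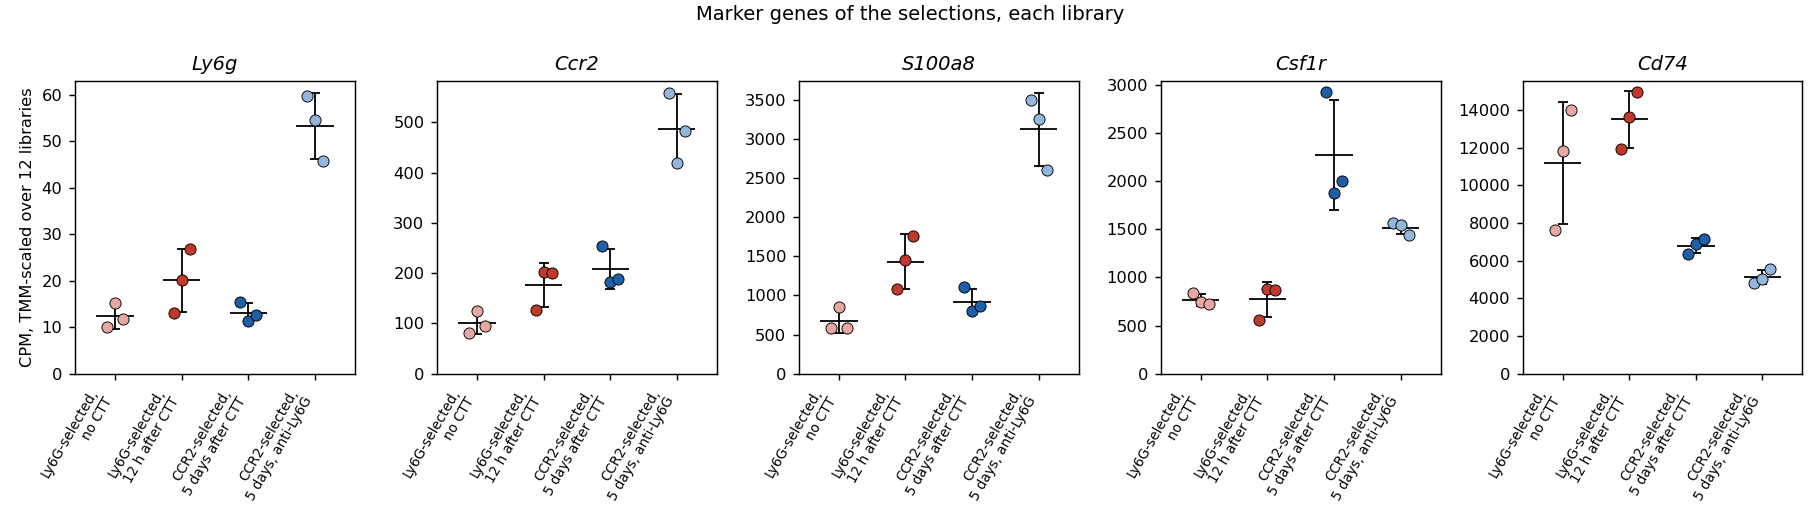
Levels of the 5 marker genes in all 12 libraries, in CPM scaled by TMM over the 12 (linear axes from 0). Each point is a library, horizontal bars are group means and error bars the SD of 3. The CCR2-selected cells with anti-Ly6G treatment show the highest Ly6g, Ccr2 and S100a8, and both groups of CCR2-selected cells show more Csf1r and less Cd74 than both groups of Ly6G-selected cells.

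Per unit of transcript length, both selections had the same leading transcripts among the listed markers. On the deposited FPKM scale, which the authors computed in each table separately, Cd74, S100a9 and S100a8 ranked 1, 2 and 3 of 226 markers in both selections. Cd74 stood at 8937 ± 703 FPKM (SD, n = 3) in the Ly6G-selected and 5049.8 ± 345 FPKM in the CCR2-selected cells. S100a9, the partner of S100a8 in calprotectin, stood at 3735 ± 1109 and 2886 ± 393 FPKM. The neutrophil granule gene Ngp ranked 4 in the Ly6G-selected cells, at a mean of 1921 FPKM, and 15 in the CCR2-selected cells, at 565 FPKM. In the Ly6G-selected cells the B cell receptor component Cd79a followed at rank 5, at 1229.5 ± 107 FPKM. The granule gene Lcn2 ranked 7 there (657 FPKM) and the neutrophil marker Retnlg 12 (503 FPKM). Csf3r, which encodes the G-CSF receptor of the neutrophil lineage, ranked 28, at 203 ± 27.0 FPKM. In the CCR2-selected cells ranks 4 to 6 went to Jchain, the joining chain of secreted antibodies, Hmox1 and C1qc, ahead of Csf1r at 612 ± 147 FPKM. Transcripts that mark B cells, plasma cells and macrophages were thus, beside those of neutrophils, among the most abundant listed markers in libraries labelled as neutrophils and monocytes.

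Neutrophil transcripts were higher in the Ly6G-selected cells, by a moderate amount. Of 15 tested neutrophil markers, 10 passed as higher in the Ly6G-selected and 0 as higher in the CCR2-selected cells, with a median log2 fold change of 0.75. Their summed level was 4966, 6409 and 7644 CPM in the Ly6G-selected and 4440.2, 3787 and 3776 CPM in the CCR2-selected libraries, a ratio of 1.58. Il1r2, the decoy receptor for interleukin-1, measured 207, 150.1 and 181 CPM against 19.7, 23.0 and 20.7 CPM. Its groups lay far apart, a log2 difference of 3.08 (SE 0.13, edgeR adjusted p = 7.85e-06). Trem1, an activating receptor that amplifies inflammation, measured 195, 220.4 and 263 CPM against 39.9, 49.5 and 46.4 CPM, a log2 difference of 2.32 (SE 0.13, edgeR adjusted p = 1.99e-05). The most abundant member, S100a9, measured 1439, 2014 and 2782 CPM against 1688, 1324 and 1294 CPM and did not pass (log2 fold change 0.53, edgeR adjusted p = 0.0742). Csf3r, at 753, 983 and 845 CPM against 670.1, 742 and 728 CPM, did not pass either (0.27, edgeR adjusted p = 0.0708). Both passed without Ly6G-selected replicate 1 (edgeR adjusted p = 0.00766 and 0.0169). Without CCR2-selected replicate 3 the count of members that passed was 6, and over all libraries left out in turn it ranged from 6 to 13. In such bulk libraries fewer cells of a type and less RNA per cell cannot be told apart.

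Later granule genes were higher in the Ly6G-selected cells, while few primary granule genes passed; the difference between the lists was not tested. Primary granules are filled early in neutrophil development, in promyelocytes, and secondary and tertiary granules later. Of 14 tested secondary and tertiary granule genes, 9 passed as higher in the Ly6G-selected and 0 as higher in the CCR2-selected cells (median 0.69). Ngp, a neutrophil granule protein, measured 2203, 1332 and 3574 CPM against 932, 501 and 442 CPM, a log2 difference of 1.92 (SE 0.38, edgeR adjusted p = 0.00387). Mmp8, the neutrophil collagenase, measured 310.3, 291 and 347 CPM against 90.8, 68.7 and 65.4 CPM (2.08, SE 0.13, edgeR adjusted p = 3.45e-05). Both were higher in all 3 Ly6G-selected libraries, which differed among themselves, with replicate 3 the highest. Ltf, which encodes lactoferrin, measured 715, 530.4 and 1559 CPM against 740.3, 384 and 342 CPM. Its ranges overlapped and it did not pass (edgeR adjusted p = 0.0956), though it did without Ly6G-selected replicate 2 or CCR2-selected replicate 1. The primary granule list had a median of −0.27, which ranged from −0.62 to 0.45 as libraries were left out in turn. Of its 9 genes 1 passed, Calr, a chaperone of the endoplasmic reticulum in most cells (769, 1134 and 1165 CPM against 675, 693 and 558 CPM, 0.67). Prtn3, the serine protease proteinase 3, measured 26.0, 14.7 and 32.5 CPM against 101, 27.6 and 35.0 CPM, and its log2 fold change of −1.16 did not pass (edgeR adjusted p = 0.0761), though it did without CCR2-selected replicate 2.

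Classical monocyte markers did not move as a group. Of 14 tested, 4 passed as higher in the Ly6G-selected and 2 as higher in the CCR2-selected cells, with a median of −0.08. Those higher in the CCR2-selected cells were Csf1r and Cd300a, an inhibitory receptor of myeloid cells (106, 120.1 and 119 CPM against 299, 209 and 239 CPM, −1.11, SE 0.13, edgeR adjusted p = 0.000346). Klf4, a transcription factor of monocyte differentiation, went the other way: 299, 308 and 397 CPM in the Ly6G-selected and 112, 88.5 and 89.5 CPM in the CCR2-selected libraries (1.80, SE 0.14, edgeR adjusted p = 6.16e-05). The summed list was 2956, 3905 and 4253 CPM against 6717, 4419.8 and 4731 CPM. Csf1r alone made up 42.6% of that sum in the CCR2-selected cells, and without it the means were 2942 ± 508 and 3036 ± 664 CPM (SD, n = 3). Of 10 nonclassical monocyte markers, 1 passed as higher in the Ly6G-selected and 2 as higher in the CCR2-selected cells. Adgre4, a surface receptor of nonclassical monocytes, measured 77.5, 119.5 and 121 CPM against 521, 310.2 and 332 CPM (−1.87, SE 0.23, edgeR adjusted p = 0.000430). Treml4, at 87.7, 172 and 156 CPM against 271, 181 and 207 CPM, missed the threshold (−0.66, edgeR adjusted p = 0.0502) and passed without Ly6G-selected replicate 2 or CCR2-selected replicate 2. The member higher in the Ly6G-selected cells was Nr4a1, which is also an immediate early gene.

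The CCR2-selected cells carried much more of the red pulp macrophage program. All 16 tested markers passed as higher in them, and for all 16 the ranges of the 3 and 3 libraries did not overlap, beside 29.0% of all tested genes. The median log2 fold change was −1.78, and the smallest difference was that of Hmox1. The summed level was 3685, 4832 and 4216 CPM in the Ly6G-selected and 18928, 11232 and 12886 CPM in the CCR2-selected libraries, 3.38 times higher in the latter. Replicate 1 of the CCR2-selected cells was the highest of the 3, and the lowest of them was more than any Ly6G-selected library. Vcam1, an adhesion molecule that marks these macrophages in the spleen, measured 750.3, 670.3 and 566 CPM against 3272, 1849 and 2087 CPM (−1.86, SE 0.21, edgeR adjusted p = 0.000287). Mertk, a receptor for the engulfment of dying cells, measured 74.0, 98.3 and 92.2 CPM against 555, 317 and 357 CPM (−2.22, SE 0.21, edgeR adjusted p = 0.000137). Timd4, a receptor for phosphatidylserine on dying cells, measured 8.88, 8.54 and 7.96 CPM against 60.7, 40.4 and 43.8 CPM (−2.51, SE 0.16, edgeR adjusted p = 3.45e-05). The complement component C1qc measured 216, 352 and 321 CPM against 1328, 786 and 825 CPM (−1.73, SE 0.24, edgeR adjusted p = 0.000706).

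Genes of heme and iron handling, the work of red pulp macrophages, were higher in the CCR2-selected cells with them: 10 of 12 passed in that direction and 1 in the other (median −0.91). Hmox1, the enzyme that opens the heme ring, measured 858, 889 and 751 CPM against 2352, 1469 and 1891 CPM (−1.19, SE 0.16, edgeR adjusted p = 0.000634). Slc40a1, the iron exporter ferroportin, measured 238, 431 and 347 CPM against 2054, 1342 and 1745 CPM (−2.34, SE 0.23, edgeR adjusted p = 0.000151). Both are members of the red pulp list as well. The ferritin chains moved in opposite directions. The light chain Ftl1 measured 1551, 1967 and 2126 CPM against 4080.0, 2951 and 3452 CPM (−0.89, edgeR adjusted p = 0.00178), and the heavy chain Fth1 measured 2731, 3002 and 3194 CPM against 2107, 1679.9 and 1866 CPM (0.66, edgeR adjusted p = 0.00151). Of 4 tested marginal zone macrophage markers, 2 passed as higher in the CCR2-selected cells: the sialic acid receptor Siglec1 (23.9, 38.7 and 48.2 CPM against 208, 111 and 113 CPM, −1.97) and the scavenger receptor Marco (11.1, 17.1 and 12.7 CPM against 27.2, 42.0 and 44.1 CPM, −1.47). Among lysosomal genes 6 of 19 passed as higher in the CCR2-selected and 2 as higher in the Ly6G-selected cells, beside 21.9% and 21.4% of all tested genes. The protease Ctsb measured 1196, 1574 and 1489 CPM against 4228, 3068 and 3324 CPM (−1.32, SE 0.15, edgeR adjusted p = 0.000265).

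**Figure D2:**
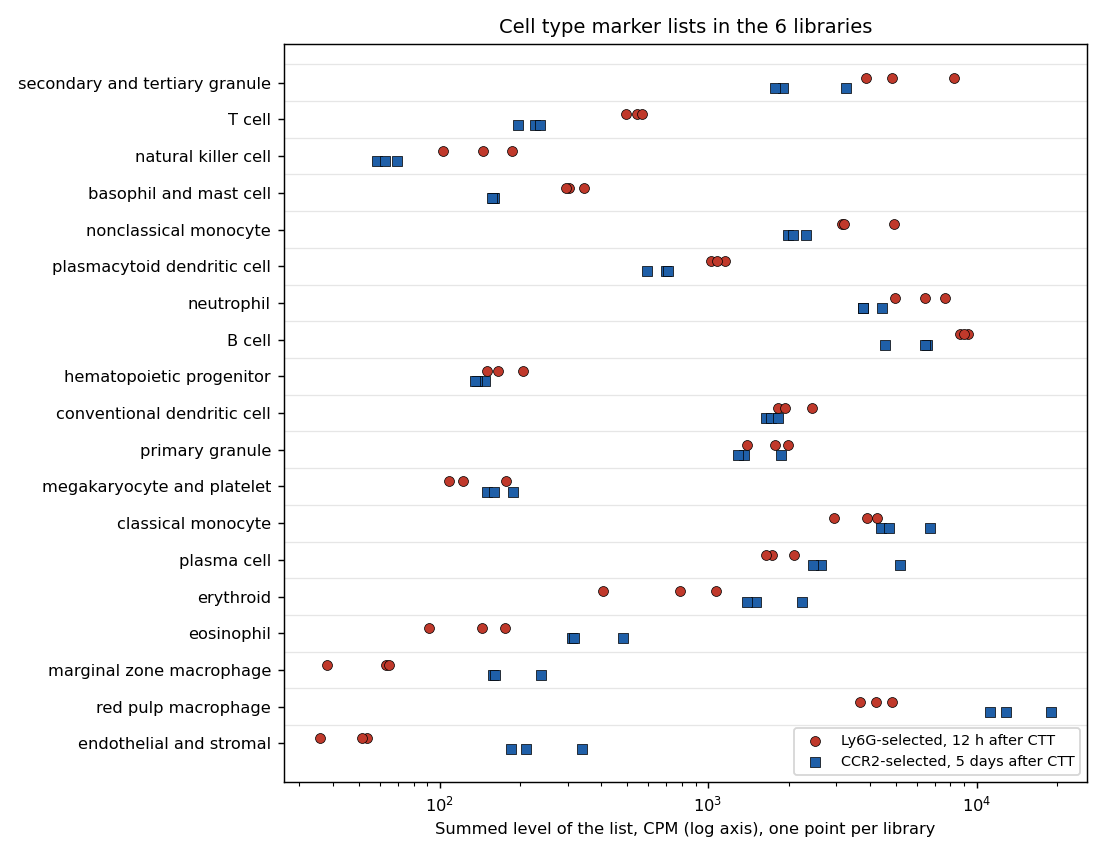
Summed levels of the 19 cell type marker lists in the 6 libraries (CPM, log axis), circles for Ly6G-selected and squares for CCR2-selected cells, lists ordered by the ratio of the group means. The red pulp macrophage sums of the CCR2-selected libraries lie between 11232 and 18928 CPM and those of the Ly6G-selected libraries between 3685 and 4832 CPM, while T cell sums lie the other way round.

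Over the 19 cell type lists, the summed levels of the groups did not overlap in 16. The smallest two-sided p that an exact permutation test of 3 against 3 libraries can give is 0.1, or 0.119 after Benjamini-Hochberg adjustment over the lists, so no sum could pass. Markers at under 1 CPM in all 6 libraries were Stfa2, Cd209g, Il4, Mecom, Ccl19, Ccl21a and Lum. No listed marker found in both count tables was at 0 in all 6. Neither count table lists a gene at 0 in all its libraries, so markers without any count could not be seen. Of 16 listed neutrophil markers 15 were in both.

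T cell and natural killer cell transcripts were low in both selections and higher in the Ly6G-selected cells. Of 16 T cell markers, 14 passed as higher in the Ly6G-selected and 0 as higher in the CCR2-selected cells (median 2.08), with sums of 494, 546 and 569 CPM against 196, 227 and 238 CPM. Cd3e, a chain of the T cell receptor complex, measured 14.1, 14.7 and 14.8 CPM against 1.5, 1.82 and 1.76 CPM (3.10, SE 0.16, edgeR adjusted p = 1.34e-05). Cd3g, another chain, measured 12.3, 16.9 and 18.2 CPM against 2.10, 1.99 and 2.40 CPM (2.86, SE 0.20, edgeR adjusted p = 4.56e-05). For both, the highest CCR2-selected library was far below the lowest Ly6G-selected one. Cd4, which mouse macrophages and dendritic cells can also express, differed less: 52.0, 63.2 and 69.3 CPM against 48.1, 44.0 and 50.8 CPM (0.37, edgeR adjusted p = 0.0287). Leaving out any library but Ly6G-selected replicate 1 ended that call, with edgeR adjusted p between 0.0525 and 0.0974. Of 12 natural killer cell markers, 11 passed as higher in the Ly6G-selected cells (median 1.82). Gzmb, a protease of cytotoxic granules, measured 13.9, 17.7 and 25.3 CPM against 2.55, 1.67 and 1.76 CPM (3.25, SE 0.27, edgeR adjusted p = 9.1e-05). The exception was Klrk1, the receptor NKG2D, at 22.7, 21.4 and 26.7 CPM against 39.8, 27.5 and 32.9 CPM (−0.50, edgeR adjusted p = 0.0239), a call lost without Ly6G-selected replicate 1 or 2 or CCR2-selected replicate 1 or 3. It made up 52.4% of the list's sum in the CCR2-selected cells, and without it the sums averaged 121 ± 40.0 against 30.3 ± 0.780 CPM (SD, n = 3).

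B cell transcripts were abundant in both selections and higher in the Ly6G-selected cells. Of 16 markers 10 passed as higher there and 0 as higher in the CCR2-selected cells (median 0.46). The sums were 8663, 9290.4 and 8962 CPM in the Ly6G-selected and 4549.6, 6518 and 6414 CPM in the CCR2-selected libraries. Cd79a measured 1206, 1423 and 1273 CPM against 474, 698 and 652 CPM (1.10, SE 0.14, edgeR adjusted p = 0.000565). Fcmr, the receptor for IgM, measured 914, 809 and 786 CPM against 179, 288 and 269.8 CPM (1.77, SE 0.17, edgeR adjusted p = 0.000140). The transcription factor Ebf1, which sets B cell identity, measured 239, 225 and 226 CPM against 73.3, 104 and 107 CPM (1.28, SE 0.14, edgeR adjusted p = 0.000224). With all 12 libraries in 1 fit, 6 of the 16 passed. That fit called fewer genes in general, 2103 as higher in the Ly6G-selected and 2207 as higher in the CCR2-selected cells of 13732 tested. Genes of MHC class II presentation, which B cells, dendritic cells and macrophages share, gave 7 of 12 higher in the Ly6G-selected and 0 higher in the CCR2-selected cells, among them H2-Ab1, a class II chain (3198, 3886 and 4259 CPM against 2163, 2291 and 2447 CPM, 0.72, edgeR adjusted p = 0.00147). H2-Oa, a chain of the peptide loading regulator H2-O found in B cells, measured 203, 245 and 269 CPM against 96.0, 115 and 122 CPM (1.10).

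Plasma cell transcripts went the opposite way to those of B cells, with 4 of 8 markers higher in the CCR2-selected and 1 higher in the Ly6G-selected cells. Jchain measured 1108, 1376 and 988 CPM against 2008, 4122 and 1799 CPM (−1.19, SE 0.29, edgeR adjusted p = 0.0106), and without CCR2-selected replicate 2, the highest, the log2 fold change was −0.72. Immunoglobulin constant chains were not analysed here. Dendritic cell lists were mixed: 3 of 13 conventional dendritic cell markers passed as higher in the Ly6G-selected and 5 as higher in the CCR2-selected cells. Over all tested genes the shares were 21.4% and 21.9%. Batf3, a transcription factor of cross-presenting dendritic cells, measured 7.89, 7.68 and 7.06 CPM against 19.8, 13.6 and 17.8 CPM (−1.18, edgeR adjusted p = 0.000725). Ccr7, the receptor that guides dendritic cells and lymphocytes to lymphoid tissue, measured 433, 359.5 and 691 CPM against 35.7, 56.4 and 58.9 CPM (3.30, SE 0.28, edgeR adjusted p = 9.38e-05). Of 9 plasmacytoid dendritic cell markers 3 were higher in the Ly6G-selected and 1 in the CCR2-selected cells, Cox6a2 (−1.01). The leading ones of the former, Ly6d (1.44) and Spib (0.53), are also expressed by B cells.

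Part of the red blood cell, eosinophil and stromal lists passed as higher in the CCR2-selected cells. Of 16 erythroid markers 7 passed as higher there and 1 as higher in the Ly6G-selected cells. The hemoglobin gene Hba-a1 measured 105, 98.7 and 64.8 CPM against 474, 277 and 266 CPM (−1.92) and Hbb-bs measured 198, 215 and 125 CPM against 643, 431 and 430.4 CPM (−1.48). Reads of the near-identical hemoglobin copies may be split between them. With all 12 libraries in 1 fit neither passed (edgeR adjusted p = 0.0761 and 0.148). In the other 6 libraries the erythroid list went the opposite way, with 7 markers higher in the Ly6G-selected and 0 in the CCR2-selected cells (median 3.42), or 9 and 0 (median 1.35) without the Ly6G-selected library of highest erythroid sum. Of 8 eosinophil markers 3 were higher in the CCR2-selected cells, led by Ccr3, the eotaxin receptor, at 38.2, 120.3 and 82.6 CPM against 419, 239 and 256 CPM (−1.92, SE 0.38, edgeR adjusted p = 0.00380). Ccr3 made up 82.4% of the list's sum in the CCR2-selected cells, and without it the sums were 56.4 ± 4.03 and 65.0 ± 6.68 CPM (SD, n = 3). Of 11 endothelial and stromal markers 5 were higher in the CCR2-selected cells. Stab2, a scavenger receptor of sinus endothelium, measured 22.9, 38.6 and 35.5 CPM against 288, 154 and 176 CPM (−2.67, SE 0.27, edgeR adjusted p = 0.000168), and the collagen gene Col3a1 0.0925, 0.430 and 0.546 CPM against 12.0, 6.31 and 8.81 CPM. Cdh5, a junction protein of all endothelium, did not pass (4.22, 5.13 and 4.91 CPM against 6.21, 5.75 and 3.05 CPM, edgeR adjusted p = 0.851). Clec1b, a platelet and myeloid lectin, was the platelet list's leading difference (6.81, 9.37 and 9.60 CPM against 47.5, 31.5 and 34.1 CPM, −2.13), whereas the platelet integrin chain Itga2b did not pass (17.9, 22.5 and 30.4 CPM against 25.8, 22.1 and 23.3 CPM).

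Immediate early genes, which encode transcription factors and regulators induced within minutes of a stimulus without new protein synthesis, were higher in the Ly6G-selected cells 12 h after CTT. Of 20 tested, 19 passed in that direction and 0 in the other, with a median log2 fold change of 1.5. Only Dusp2, a phosphatase, did not pass (136, 138 and 204 CPM against 146, 192 and 190.2 CPM). The Nr4a family of orphan nuclear receptors led the list together with the AP-1 subunit Fosl1. Nr4a1 measured 1877, 1654 and 3404 CPM against 465, 399 and 413 CPM (2.44, SE 0.25, edgeR adjusted p = 0.000187). Nr4a2 measured 58.8, 52.1 and 81.3 CPM against 2.52, 3.26 and 2.63 CPM (4.51, SE 0.20, edgeR adjusted p = 7.85e-06). Nr4a3 measured 76.8, 38.7 and 189.6 CPM against 3.39, 5.54 and 7.55 CPM (4.20, SE 0.58, edgeR adjusted p = 0.000703). In all 3 genes every Ly6G-selected library lay above every CCR2-selected one, and replicate 3 was the highest. Fosl1 measured 17.9, 12.3 and 36.4 CPM against 0.480, 0.528 and 0.392 CPM (5.56, SE 0.46, edgeR adjusted p = 9.23e-05). The most abundant member, Zfp36, which destabilises cytokine mRNAs, measured 3903, 3457 and 4552 CPM against 1601, 1633 and 1518 CPM (1.33, edgeR adjusted p = 9.12e-05), and Fos 2329.8, 2458 and 2839 CPM against 1534, 1542 and 1344 CPM (0.79, edgeR adjusted p = 0.000548).

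Since the 3 Nr4a genes moved together, the 250 bases before each start are shown from RefSeq (GRCm38.p6), 5′ to 3′ on the gene's strand, with TGACG and its reverse complement CGTCA in capitals, the half-site of the cAMP response element. The windows are chr15:101266596-101266845 (plus strand), chr2:57124004-57124253 (minus strand) and chr4:48045055-48045304 (plus strand).
Nr4a1: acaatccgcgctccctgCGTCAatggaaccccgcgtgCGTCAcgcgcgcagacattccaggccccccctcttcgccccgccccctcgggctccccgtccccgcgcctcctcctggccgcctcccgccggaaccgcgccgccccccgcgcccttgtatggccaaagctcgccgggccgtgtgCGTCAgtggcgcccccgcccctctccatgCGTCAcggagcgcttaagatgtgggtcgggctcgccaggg
Nr4a2: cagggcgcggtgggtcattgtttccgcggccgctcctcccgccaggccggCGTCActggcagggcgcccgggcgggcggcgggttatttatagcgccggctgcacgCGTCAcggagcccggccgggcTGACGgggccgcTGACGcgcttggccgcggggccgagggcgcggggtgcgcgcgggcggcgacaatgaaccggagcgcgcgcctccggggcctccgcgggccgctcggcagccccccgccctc
Nr4a3: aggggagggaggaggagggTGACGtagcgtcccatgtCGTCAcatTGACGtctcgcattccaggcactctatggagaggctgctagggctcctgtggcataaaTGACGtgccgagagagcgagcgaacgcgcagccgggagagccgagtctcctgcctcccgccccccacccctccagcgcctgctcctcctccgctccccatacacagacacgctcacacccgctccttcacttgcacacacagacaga
Each window held 4 half-sites. Among the 27025 genes of the promoter table, 0.777% had 3 or more in their window and 4.46% had 2 or more, taking the window with the most for genes with several and counting overlapping matches. Of the 20 immediate early genes 16 were in the table, 4 of them with 3 or more half-sites and 7 with 2 or more. The 3 Nr4a genes, for which the windows were shown, are 3 of those 4, and Dusp1 is the other. They are also among the 7, so these counts are no independent result for the list. Of 10 red pulp macrophage genes found there, 0 had 2 or more. The list of inflammatory cytokines and chemokines, also higher in the Ly6G-selected cells, had 15 genes there. In that list 2 genes had 1 or more (13.3%, beside 19.8% of all genes in the promoter table), 1 had 2 or more and 0 had 3 or more. A match is a description of the letters in the window, not a bound site or a cause.

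Secreted factors of inflammation were higher in the Ly6G-selected cells. Of 22 tested cytokines and chemokines 17 passed in that direction and 0 in the other, with a median of 1.91. Cxcl2, a chemokine that attracts neutrophils, measured 1063, 1241 and 1128 CPM against 199, 165 and 183 CPM (2.65, SE 0.10, edgeR adjusted p = 7.85e-06), and the related Cxcl3 9.99, 11.4 and 8.19 CPM against 0.660, 0.821 and 0.363 CPM (4.0, SE 0.30, edgeR adjusted p = 5.84e-05). Il1b, the inflammatory cytokine interleukin-1 beta, measured 817, 1088 and 1141 CPM against 451, 546 and 511 CPM (1.01, SE 0.13, edgeR adjusted p = 0.000602). None of these had overlapping ranges. The anti-inflammatory Il10 was higher as well, at 19.0, 17.5 and 34.7 CPM against 2.76, 2.76 and 1.82 CPM (3.28, SE 0.30, edgeR adjusted p = 0.000130). A list of genes used to describe suppressive myeloid cells shares Il10, Tgfb1, Vegfa and Hif1a with other lists. It gave 16 of 20 higher in the Ly6G-selected and 0 higher in the CCR2-selected cells (median 0.74). Its members included Ptgs2, the inducible enzyme of prostaglandin synthesis (456, 505 and 723 CPM against 174, 198 and 166 CPM, 1.65, edgeR adjusted p = 0.000176), and the angiogenic factor Vegfa (31.8, 33.7 and 57.6 CPM against 5.31, 8.24 and 5.37 CPM, 2.70, edgeR adjusted p = 0.000166).

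Heat shock chaperones fold proteins, and some of them are induced by heat and other stresses. They passed as higher in the Ly6G-selected cells for 10 of 14 genes and as higher in the CCR2-selected cells for 0 (median 0.69). Ranges did not overlap for 9 genes on the Ly6G-selected and 1 on the CCR2-selected side. A response to heat was not tested. Hspa8 measured 3215, 4211 and 4280.4 CPM against 1252, 1232 and 1247 CPM (1.65, SE 0.12, edgeR adjusted p = 5.02e-05). Hsp90ab1 measured 2763, 2944 and 3125 CPM against 1487, 1498 and 1556 CPM (0.96, SE 0.08, edgeR adjusted p = 9.54e-05). The CCR2-selected libraries differed little among themselves for either gene. Markers of lymphocytes were also higher in the Ly6G-selected cells, and their part in the immediate early, cytokine and chaperone differences was not tested.

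**Figure D3:**
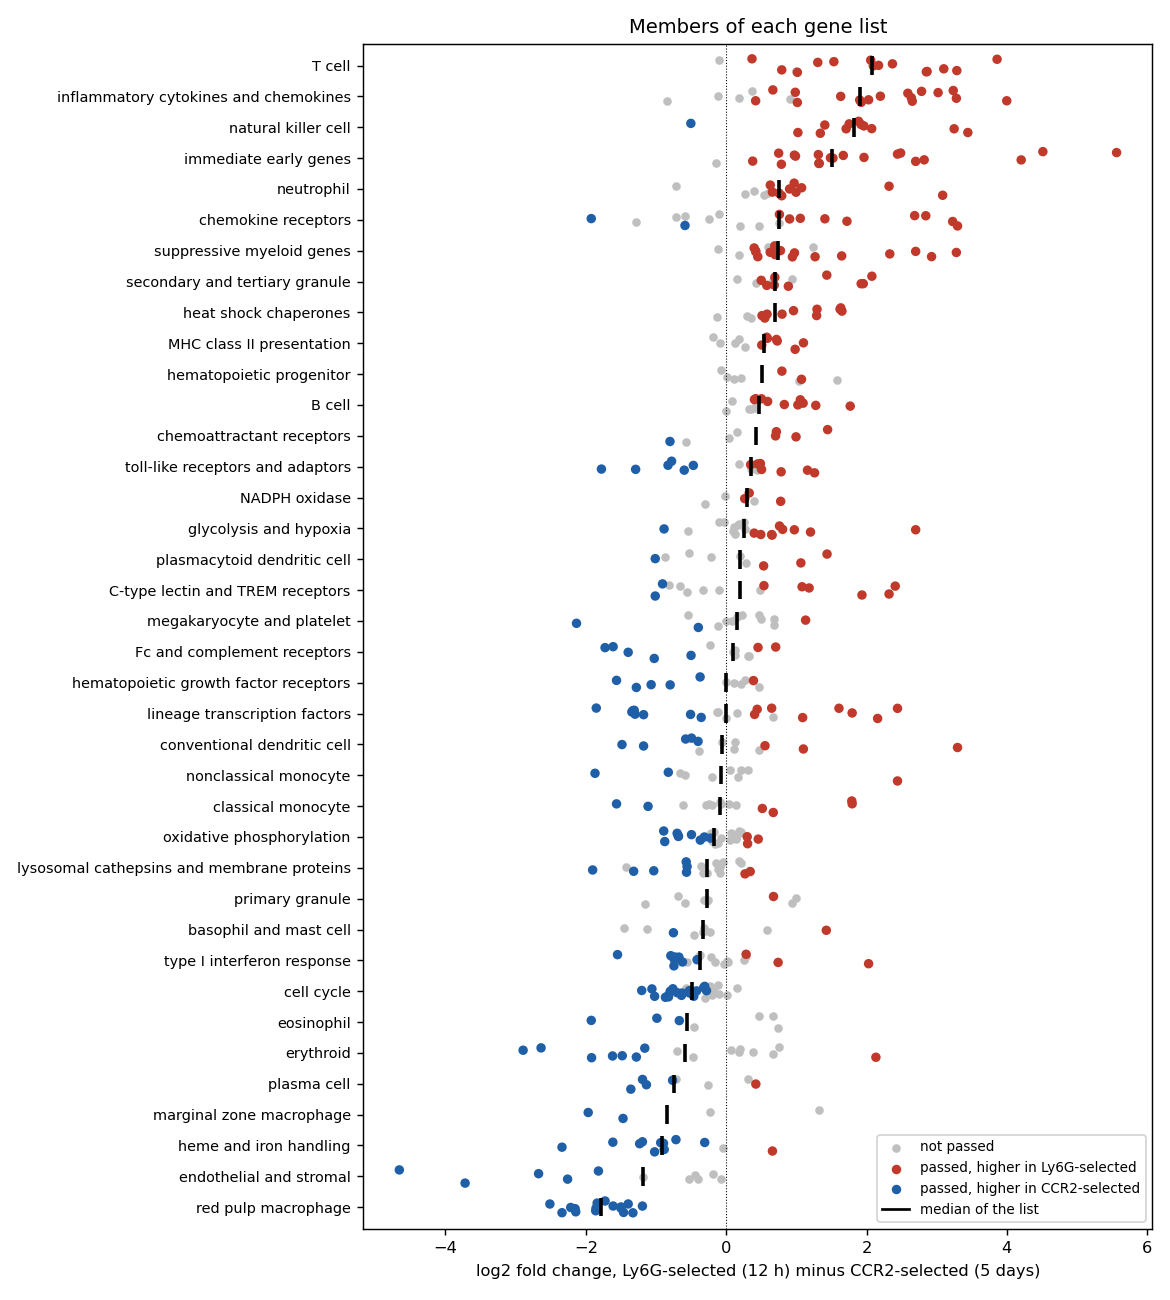
Log2 fold changes (Ly6G-selected minus CCR2-selected) of the tested members of all 38 gene lists, ordered by the list median (black bar). Colored points passed edgeR's test and grey points did not. All 16 red pulp macrophage genes lie left of 0 and 19 of 20 immediate early genes right of it.

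Receptors by which cells sense their surroundings were divided between the selections. Of 19 chemokine receptors, 9 passed as higher in the Ly6G-selected and 2 as higher in the CCR2-selected cells (median 0.75). Cxcr4, which holds leukocytes in the bone marrow, measured 1092, 881 and 1171 CPM against 146, 166 and 176 CPM (2.69, SE 0.13, edgeR adjusted p = 9.08e-06). Ccr1, a receptor of inflammatory chemokines on myeloid cells, measured 223, 241 and 226 CPM against 69.8, 70.1 and 69.1 CPM (1.72, SE 0.07, edgeR adjusted p = 7.85e-06), and its values within each selection were close. C5ar1, the receptor for complement fragment C5a, was higher in the Ly6G-selected cells (111, 119 and 136 CPM against 43.0, 46.3 and 44.9 CPM, 1.45), and its relative C5ar2 in the CCR2-selected cells (7.98, 7.44 and 7.80 CPM against 13.5, 13.7 and 13.2 CPM, −0.80). Among hematopoietic growth factor receptors 5 of 11 were higher in the CCR2-selected and 1 in the Ly6G-selected cells, and Csf2ra, a chain of the GM-CSF receptor, measured 93.5, 99.3 and 110.4 CPM against 246, 184 and 206 CPM (−1.07, edgeR adjusted p = 0.000246). Toll-like receptors and adaptors split 7 to 6 of 16. Cd14, the co-receptor for endotoxin often used as a monocyte marker, was higher in the Ly6G-selected cells (232, 231 and 288 CPM against 130.4, 99.1 and 107 CPM, 1.16, edgeR adjusted p = 0.000258). C-type lectin and TREM receptors gave 6 of 14 higher in the Ly6G-selected cells, among them Clec4d (139, 172 and 154 CPM against 38.7, 43.7 and 39.4 CPM, 1.93), and 2 higher in the CCR2-selected cells.

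Lineage transcription factors were called in both directions, 8 of 21 each way. Irf4, which acts in lymphocytes and dendritic cells, measured 673, 596 and 949 CPM against 124, 204 and 169 CPM (2.16, edgeR adjusted p = 0.000166). Irf8, which directs monocyte and dendritic cell fate, measured 473, 479 and 451 CPM against 631, 573 and 591 CPM (−0.36, edgeR adjusted p = 0.00562). Type I interferon response genes gave 8 of 21 higher in the CCR2-selected and 3 higher in the Ly6G-selected cells. Of 20 genes of glycolysis and hypoxia, 9 were higher in the Ly6G-selected cells and 1 in the CCR2-selected cells. The glucose transporter Slc2a1 measured 103, 100 and 114 CPM against 42.3, 47.8 and 47.8 CPM (1.20, edgeR adjusted p = 5.3e-05). Of 26 oxidative phosphorylation genes, 9 were higher in the CCR2-selected and 3 in the Ly6G-selected cells, with Cox5a, a subunit of cytochrome c oxidase, at 44.5, 51.7 and 50.7 CPM against 97.9, 82.5 and 88.9 CPM (−0.88). Cell cycle genes gave 19 of 30 higher in the CCR2-selected and 0 in the Ly6G-selected cells (median −0.49). Top2a, a topoisomerase of dividing cells, measured 162, 132 and 144 CPM against 269.9, 263 and 243 CPM (−0.82, edgeR adjusted p = 0.000298). With all 12 libraries in 1 fit, 1 of the 30 passed. Calls fell over all genes in that fit, to 2103 and 2207 of 13732 tested.

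The largest differences were taken among genes that passed, averaged at least 10 CPM in the higher selection and did not overlap, a rule that leaves out changes in genes of lower level such as Cxcl3 and Col3a1. On the Ly6G-selected side the largest log2 fold change after that of Fosl1 was that of Acta1, the skeletal muscle actin (chr8:123891758-123894775). It measured 7.92, 9.16 and 13.3 CPM against 0.210, 0.176 and 0.280 CPM (5.48, SE 0.32, edgeR adjusted p = 2.3e-05). Acta1 is taken up again below with transcripts of other tissues. Maff, a small Maf transcription factor (chr15:79346621-79359078), measured 75.6, 65.9 and 156 CPM against 6.06, 5.98 and 6.46 CPM (4.01). Acod1, which makes the metabolite itaconate in activated myeloid cells (chr14:103047012-103056573), measured 299.9, 303 and 526 CPM against 21.7, 26.1 and 23.7 CPM (3.98, SE 0.23, edgeR adjusted p = 2.17e-05). The rest of the 10 besides Nr4a2 and Nr4a3 were Rasd1 (3.97), Zbtb10 (3.78), Plk2 (3.56) and Ston1. Ston1 rested on 1 library, with 29.6, 4.33 and 2.86 CPM against 1.02, 1.32 and 0.839 CPM, and its log2 fold change fell from 3.53 to 1.77 without Ly6G-selected replicate 1. On the CCR2-selected side 9 of the 10 genes averaged 48.4 CPM or less in the CCR2-selected cells. Kcnj9, a potassium channel subunit (chr1:172320508-172329322), measured 1.36, 3.32 and 2.47 CPM against 31.6, 23.3 and 18.8 CPM (−3.36, SE 0.31, edgeR adjusted p = 0.000133). Sned1, an extracellular matrix protein (chr1:93235796-93301065), measured 3.39, 5.71 and 6.20 CPM against 51.6, 30.2 and 30.4 CPM (−2.87, edgeR adjusted p = 0.000153). The other one was the hemoglobin gene Hba-a2, at 26.4, 30.2 and 23.3 CPM against 284, 163 and 148 CPM (−2.89). The 10 also held Slit1, Ccdc148, Ank2, Erbb2, Prxl2b and the butyrophilin-like genes Btnl4 and Btnl6, with log2 fold changes between −3.22 and −2.80.

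The same antigens were compared in the 6 libraries that the comparison above did not use, Ly6G-selected cells without CTT against CCR2-selected cells 5 days after CTT with anti-Ly6G. Treatment differs between those groups too. Of 13236 tested genes, 1376 (10.4%) passed as higher in the Ly6G-selected and 1988 (15.0%) as higher in the CCR2-selected cells. Of the genes higher in Ly6G-selected cells after CTT, 1018 were so here as well, 36.1% of the first list and 74.0% of the second. Of the genes higher in CCR2-selected cells, 1134 were shared, 39.3% of the first and 57.0% of the second list. In 171 genes the direction turned, from higher in the Ly6G-selected cells after CTT to lower in those without CTT, and in 0 genes it turned the other way. One library of Ly6G-selected cells without CTT stood apart, with an erythroid sum of 16656 CPM (scaled over 12 libraries) beside 2713 and 884 CPM in its replicates. Without it 3419 and 3516 of 13530 tested genes passed, so calls rose over all genes. The shared and turned genes above were counted with that library included and were not counted again without it.

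Red pulp macrophage and lymphocyte transcripts differed in the same direction in both comparisons, whereas those of neutrophils, red blood cells and several functional lists turned. All 16 red pulp macrophage markers were again higher in the CCR2-selected cells (median −1.02), with sums of 4172, 3837 and 3952 CPM against 9406, 9491 and 8569 CPM. T cell markers were again higher in the Ly6G-selected cells for 14 of 16 (median 1.71) and natural killer cell markers for 9 of 12 (1.44), and B cell markers for 6 of 16 (0.96). Of 15 neutrophil markers 11 passed as higher in the CCR2-selected cells with anti-Ly6G and 0 as higher in the Ly6G-selected cells without CTT (median −1.72). Their sums were 2773, 3671 and 2618 CPM in the Ly6G-selected and 11731, 11953 and 9306 CPM in the CCR2-selected libraries, which did not overlap. Ly6g itself measured 10.1, 15.3 and 11.7 CPM in the Ly6G-selected and 59.7, 54.4 and 45.7 CPM in the CCR2-selected libraries (−2.11, edgeR adjusted p = 0.00154). Classical monocyte markers were higher in the CCR2-selected cells for 11 of 14, and Ccr2 measured 81.3, 125 and 95.8 CPM against 558, 418 and 483 CPM (−2.27, edgeR adjusted p = 0.00134). Lists with most calls on the Ly6G-selected side after CTT and on the CCR2-selected side here also included the suppressive myeloid genes (4 higher in the Ly6G-selected and 9 in the CCR2-selected cells, median −0.55), glycolysis and hypoxia (0 and 9, −0.37), C-type lectin and TREM receptors (0 and 8, −0.64), chemoattractant receptors (0 and 6, −1.28), secondary and tertiary granule genes (0 and 12, −1.49) and NADPH oxidase genes (0 and 3, −0.48). Toll-like receptors and adaptors, 7 and 6 after CTT, gave 1 and 7 here. Immediate early genes were higher in the Ly6G-selected cells for 12 of 20 and chaperones for 7 of 14. Cytokines were called in both directions (10 and 3 of 21). Cxcl2, which had differed by 2.65 after CTT, measured 287, 346 and 292 CPM against 332, 391 and 285 CPM here (−0.12, edgeR adjusted p = 0.553). Without the library that stood apart, the counts were 16 of 16 for red pulp macrophages, 16 of 16 for B cells and 15 of 16 for T cells. They were 11 of 12 for natural killer cells, 12 of 15 for neutrophils and 16 of 20 for immediate early genes, all in the same directions. The cell cycle list, with 0 of 30 called, then gave 20 higher in the CCR2-selected cells and 1 lower. These counts stand beside 3516 and 3419 of all 13530 tested genes in that fit, where calls rose in general.

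**Figure D4:**
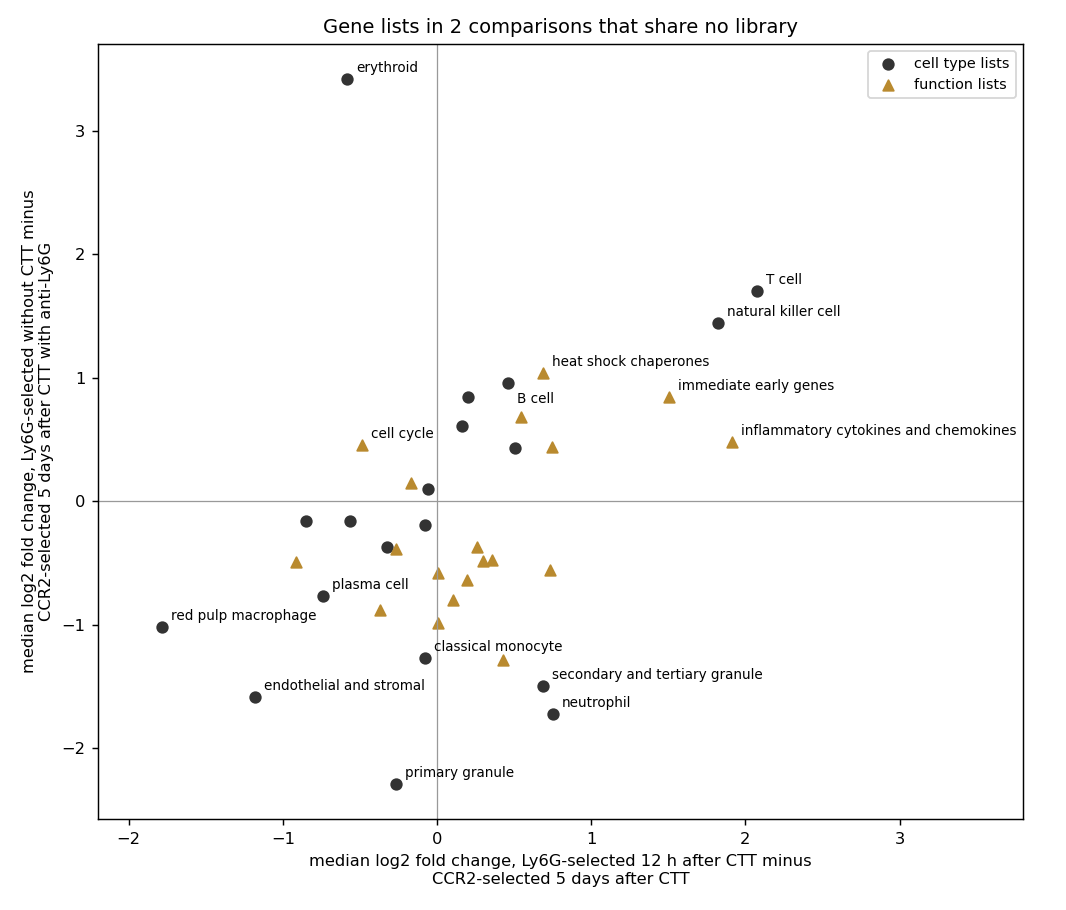
Median log2 fold change of each gene list after CTT (x axis) against that in the other 6 libraries (y axis), both Ly6G-selected minus CCR2-selected. Circles are cell type lists and triangles functional lists. T cell, natural killer cell and B cell lists lie above 0 and red pulp macrophage and stromal lists below 0 on both axes, and the neutrophil and secondary granule lists lie right of 0 on the x axis and below 0 on the y axis.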

How the data were processed

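TRIzol RNA of the selected spleen cells was sequenced after VAHTS Universal V6 library preparation, per the labels' protocols. Raw counts, whole numbers by gene, were deposited by the authors as a neutrophil and a monocyte table. The submitters' processing notes name HISAT2, HTSeq and mm10. Tool versions, gene annotation and strandedness of counting are not given in the labels or those notes, so overlapping, antisense and near-identical genes are uncertain. The authors also deposited FPKM, computed in each table separately, used here for levels compared between genes and in alternatives.

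Groups and replicate numbers came from the sample titles. The tables were joined on gene ID, which kept 16283 genes (522 genes of the neutrophil and 671 of the monocyte table were in 1 table only), and 16192 matched a RefSeq table of GRCm38.p6. The Neu_CTT and Mono_CTT counts were filtered by filterByExpr, scaled by TMM and tested two-sided in R 4.3.3 with edgeR 4.0.16 (glmQLFit, glmQLFTest), Benjamini-Hochberg adjusted over 13209 genes. The common biological coefficient of variation was 0.148, and 6797 genes had an unadjusted p under 0.05. SEs are approximate, from the fold change and its F statistic. No 2 libraries agreed within counting error. At this depth (31865982 counts or more per library) counting error matters for genes of a few CPM. On simulated counts of this comparison (13044 genes) the test recovered 31.3% of 1.5-fold, 70.8% of 2-fold and 89.4% of 4-fold differences, with 11 false calls among 137. The simulation changed only 67, 65 and 66 genes at these folds, whereas 5710 genes passed in the data. Its cutoff after adjustment was therefore stricter, and these rates do not give the recovery of the reported test.

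The members, the 19 cell type and 19 functional lists and the tests were chosen with earlier results of these data known. Named genes were the 5 markers, the 10 largest changes each way with at least 10 CPM and no overlap (no immunoglobulin, T cell receptor or numbered gene models), and per list the 2 most abundant members and the 2 of smallest p. Some genes that this rule names are not reported here. Members that broke their list's pattern were named after their values were seen. Alternatives were other scalings and filters, DESeq2 1.42.0, limma 3.58.1, the replicate block, all 12 libraries, a minimum fold, and each library left out.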

Additional observations from a re-analysis of the deposited data

Results flagged for a closer look

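These genes were in 1 of the tables only and so in no comparison of the selections. In the monocyte table, the CCR2-selected libraries after CTT held means of 9.3 reads of Krt14, a keratin of basal epithelia (6 to 12 reads per library), 10.7 reads of Slc34a2, a phosphate transporter of lung and gut epithelia (7 to 15), 10 reads of Wnt4, a secreted signal (9 to 11), 10 reads of Msmp (7 to 14), 13.7 reads of 6330409D20Rik (12 to 15) and 5.3 reads of 4931422A03Rik (5 to 6). These are above the 3 reads that a count of 0 allows. Several were as high in the CCR2-selected libraries with anti-Ly6G: 9, 22 and 25 reads of Slc34a2, 8, 37 and 7 of 6330409D20Rik and 17, 7 and 9 of Msmp. Lower there were Krt14 (1, 0 and 0 reads) and Wnt4 (4, 2 and 1), while 4931422A03Rik had 8, 2 and 2. In the neutrophil table, the Ly6G-selected libraries after CTT held a mean of 17.7 reads of Miox, a kidney enzyme of inositol breakdown (11 to 24), against 7 to 8 without CTT, and 4.7 reads of Kl, which encodes klotho (4 to 5), against 3 in each control. The differences were not tested.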

How the results depend on the processing

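Of 141 named genes, 69 kept direction and side of the threshold under every alternative and 0 reversed. Over the libraries left out in turn, 2145 to 2767 genes passed as higher in the Ly6G-selected and 2181 to 2750 as higher in the CCR2-selected cells. With a minimum log2 fold change of 1 (glmTreat) 202 and 229 passed. That test left 2 neutrophil, 2 secondary granule, 1 B cell, 6 natural killer cell, 9 cytokine, 12 immediate early, 3 chaperone and 3 suppressive genes on the Ly6G-selected side, and 9 red pulp, 1 heme and iron and 0 cell cycle genes on the CCR2-selected side. DESeq2 called 3103 and 2971. Library totals gave 1692 genes higher in the Ly6G-selected cells, and FPKM fits 1631 (pseudocount 1), 1647 (0.1) and 1521 (mean of at least 1 FPKM). Library totals gave medians of 0.042 (plasmacytoid dendritic cell), 0.20 (toll-like), 0.10 (glycolysis) and −0.32 (oxidative phosphorylation). FPKM with pseudocount 1 gave 0.023, 0.17, 0.10 and −0.32 for these, 1.08 (T cell), 1.05 (natural killer), 0.082 (progenitor), −0.48 (stromal), 0.28 (chemokine receptors), 1.42 (cytokines) and 0.51 (suppressive), with 6 neutrophil and 6 B cell genes. Pseudocount 0.1 gave 0.032, 0.20, 0.10 and −0.32, 1.70 (T cell), 0.54 (chemokine receptors) and 0.55 (suppressive), with 6 B cell genes. The minimum of 1 FPKM gave 0.066, 0.17, 0.10 and −0.32, 1.14 (T cell), 1.05 (natural killer), 0.054 (progenitor), 0.24 (chemokine receptors), 1.42 (cytokines), 0.52 (suppressive), −1.48 (marginal zone) and −0.33 (growth factor receptors). Without a filter the marginal zone median was −1.47 and the progenitor median 0.22, and with at least 1 CPM in 3 libraries the progenitor median was 0.21 and the stromal −1.51. With all 12 libraries 6 B cell and 1 cell cycle genes passed, beside 2103 and 2207 of all 13732 tested genes, and the progenitor median was 0.22. In these cases the cause was not tested.

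Libraries left out in turn moved the plasmacytoid median (0.038 to 0.33), the stromal median (−1.53 to −0.90), the chemokine receptor median (0.47 to 0.80), and the neutrophil (6 to 13) and cell cycle (12 to 25) counts. In the other 6 libraries they gave 301 to 3419 genes higher in the Ly6G-selected and 966 to 3516 higher in the CCR2-selected cells, the highest without control replicate 1. The log2 ratio of summed lists moved on FPKM to 0.65 (conventional dendritic), 0.98 (plasmacytoid) and 0.67 (basophil), and on library totals to 0.84 (basophil). Without its most abundant member, an alternative chosen after seeing the data, the ratio reversed for nonclassical monocytes (−0.23, without Nr4a1) and basophils (−0.28, without Hdc). It moved to −0.31 (primary granule), −0.045 (classical monocyte), −1.19 (marginal zone), 0.60 (conventional dendritic), −0.26 (plasma cell), 2.0 (natural killer), −0.20 (eosinophil) and −1.37 (stromal).

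Replicate numbers did not pair the libraries: deviations of same-numbered libraries correlated at −0.08, 0.00 and 0.03. With the replicate block 2405 and 2531 genes passed.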

Other observations

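Hdc, the enzyme that makes histamine, measured 264, 251 and 287 CPM in the Ly6G-selected and 92.6, 110.0 and 95.5 CPM in the CCR2-selected libraries (log2 fold change 1.43, SE 0.09, edgeR adjusted p = 3.77e-05). Other basophil and mast cell markers did not share this: 1 of the list's 9 genes passed as higher in the Ly6G-selected cells, Hdc itself, and 1 as higher in the CCR2-selected cells, Ms4a2, a chain of the IgE receptor (3.08, 2.70 and 2.99 CPM against 4.32, 4.58 and 5.87 CPM). The call of Ms4a2 was lost in 2 of 6 fits with 1 library left out (edgeR adjusted p = 0.0647 and 0.0961). Of 13 Fc and complement receptors, 2 passed as higher in the Ly6G-selected and 5 as higher in the CCR2-selected cells, and the integrin chain Itgb2 did not pass (557, 704 and 819 CPM against 699.8, 596 and 639 CPM). Of 6 NADPH oxidase genes 3 passed as higher in the Ly6G-selected cells, among them the small GTPase Rac2 (1023, 1135 and 1162 CPM against 618, 662 and 658 CPM, 0.78). Its catalytic subunit Cybb did not pass (707, 712 and 883 CPM against 848, 729 and 759 CPM). Of 8 chemoattractant receptors 4 were higher in the Ly6G-selected cells and 1 in the CCR2-selected cells. Of 8 progenitor markers 2 were higher in the Ly6G-selected cells, Myb (0.79) and Sox4 (1.07), beside 21.4% of all tested genes. Of 13 megakaryocyte and platelet markers, 1 passed as higher in the Ly6G-selected and 2 as higher in the CCR2-selected cells.

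Transcripts of other tissues appeared at low counts. Myh4, a myosin of fast skeletal muscle, was in the neutrophil table only, with 75, 61 and 102 reads after CTT and 64, 56 and 89 reads without CTT, beside the muscle actin Acta1 described above. Sftpa1, a lung surfactant protein, was in the monocyte table only, with 16, 18 and 3 reads after CTT and 10, 62 and 65 reads with anti-Ly6G.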
